A study of Mus musculus with 13 samples.

Results

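The RNA of 10 mammalian cell cycle genes, most of which act at the G2/M transition and in mitosis, was examined in mouse ES cells with and without a phosphomimetic form of CTCF. The 10 genes encode the Polo-like kinases PLK1 and PLK4, the Aurora kinases A and B, the kinase CDK1 with its cyclins A2 and B1, the spindle checkpoint kinases BUB1 and TTK, and CDC20, the activator of the anaphase-promoting complex (APC/C). They were taken by gene symbol from both deposited count tables, and all 10 were present among the 24421 genes listed. Plk1 is the reason for looking at this set, since the study examines PLK1 as the kinase of CTCF Ser224. The comparison asks whether RNA of the mitotic machinery differs when cells make CTCF S224E, in which glutamate stands in for phosphorylated serine.

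The cells were F1-2.1, a female mouse ES cell line of mixed CAST/Ei and 129/Sv/Jae background, grown on γ-irradiated fibroblast feeders. They carried a Tet-on transgene for CTCF S224E, and all libraries came from a single clone (A2) that kept its endogenous Ctcf. The +dox group had 2 libraries from cells grown with doxycycline at 1 μg/mL for 6 days, and the −dox group had 2 libraries from the same line grown for 6 days without it. No RNA library with doxycycline and a wild-type transgene, or without a transgene, was analysed here, so effects of doxycycline and of S224E cannot be told apart.

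Mitosis is run by kinases, some of which are made and destroyed in each division. CDK1 bound to cyclin A and then to cyclin B starts mitosis, PLK1 and Aurora A mature the centrosomes and promote CDK1 activation, PLK4 starts the duplication of centrioles, and Aurora B corrects the attachment of chromosomes to the spindle. BUB1 and TTK (also called MPS1) act at kinetochores in the spindle checkpoint, which holds back CDC20 until all chromosomes are attached. The RNAs of these genes are low in G1 and high in G2 and M, so that in an unsynchronised culture their level depends on the share of cells in those phases and on the amount of RNA per cell, which bulk RNA cannot tell apart.

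Many promoters of such genes hold the cell cycle genes homology region (CHR), TTTGAA, and CCAAT boxes bound by the factor NF-Y. Both were searched on either strand in RefSeq promoter windows of GRCm38.p6, which reach from 250 bases before to 50 bases after the gene start, and windows were supplied for 8 of the 10 genes. TTTGAA was in 5 of these 8 windows (Plk1, Aurka, Cdk1, Ttk and Cdc20) and in 17.9% of all 32851 windows. CCAAT was in 7 of 8 (all but Plk4) and in 37.4% of all windows. In 101 windows of other mitotic genes, listed further below, TTTGAA was in 38.6% and CCAAT in 58.4%. The motifs did not overlap each other in any of the 8 windows. The stretches below are shown because they carry the elements by which these genes are usually grouped, with the motif named on each line in capitals, written on the strand of the gene and placed by the distance in bases from the start. The stretch of Cdc20 also holds a CCAAT, left in lower case, whose first base is at -8.
Plk1, TTTGAA first base at 30, chr7:122159453-122159482, plus strand: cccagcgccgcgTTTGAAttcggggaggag
Cdc20, TTTGAA first base at -18, chr4:118437344-118437373, minus strand: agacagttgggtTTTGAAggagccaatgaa
Cdk1, TTTGAA first base at -15, chr10:69352910-69352939, minus strand: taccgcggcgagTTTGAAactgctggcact
Aurka, TTTGAA first base at 32, chr2:172370521-172370550, minus strand: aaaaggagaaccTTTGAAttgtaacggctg
Bub1, CCAAT first base at -42, chr2:127831884-127831913, minus strand: ccgcagcggagaCCAATagtcaggcgcgct
Ccnb1, CCAAT first base at -67, chr13:100786536-100786565, minus strand: gccacgaactggCCAATgaggagcgagcgg

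The libraries held 22899107 to 30206085 counted reads. Ctcf, whose counts do not separate the transgene from the endogenous gene, had 327 and 329 CPM (counts scaled to a common library size with TMM factors) with dox against 295 and 304 without. In the study, only a minority of RNA reads over the mutated codon carried glutamate, and it describes the exogenous expression as modest. None of the 10 ES cell markers examined was under 1 CPM throughout, and their summed level was 6839.5 and 7569 CPM with dox against 6049 and 6419 CPM without. Of these 10 markers 9 were higher with dox, 5 of them with no overlap between the groups (26.1% of genes averaging at least 1 CPM). Of the 10, 0 were called by edgeR (0.599% of all genes) and 0 by DESeq2 (1.87%). Before adjustment 5 had a p-value under 0.05 in edgeR (17.8% of all genes). Fibroblast feeder markers were also present. Their summed level over 16 genes was 1461 and 656 CPM in +dox replicates 1 and 2, and 525 and 571 CPM without dox. Both +dox libraries were thus above both −dox libraries, with a median log2 fold change of 1.49 in replicate 1 and 0.40 in replicate 2. Of these 16 genes 15 were higher with dox, and only Lum was under 1 CPM throughout. In 14 of the 16 the groups did not overlap, with dox higher (26.1% of genes averaging at least 1 CPM). Neither edgeR (0.599% of all genes) nor DESeq2 (1.87%) called any of the 16. Before adjustment 13 had a p-value under 0.05 in edgeR (17.8% of all genes). Markers of differentiating cells summed to 215 and 221 CPM with dox and 331 and 334 without. Of these 12 markers 9 were lower with no overlap between the groups, against 27.7% of genes averaging at least 1 CPM. The list did not go all 1 way, since 3 of the 12 were higher with dox. Of those, 2 had no overlap between the groups, against 26.1% of genes at that level. edgeR called 9 of these 12 genes (0.599% of all genes) and DESeq2 called 10 (1.87% of all genes). Each group had 2 biological replicates by the methods. The part of other cells in the values below was not tested.

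None of the 10 genes passed the test between +dox and −dox cells. edgeR's quasi-likelihood test, fitted on all 20044 genes with a count, called 0 of 10 at an adjusted p-value under 0.01, where it called 0.599% of all genes (0.0798% higher and 0.519% lower). DESeq2 called 0 of 10, where it called 1.87% (0.589% higher and 1.28% lower). Without adjustment, 3 of 10 had a p-value under 0.05 in edgeR (Cdc20 higher, Bub1 and Plk4 lower), against 17.8% of all genes (8.48% higher and 9.31% lower). Their log2 fold changes ran from -0.37 for Bub1 to 0.21 for Cdc20, with 4 above and 6 below 0. The median was -0.05, beside -0.001 over the 13911 genes averaging at least 1 CPM. Within the deposited tables it was -0.055 in replicate 1 and -0.001 in replicate 2. The 2 groups of libraries did not overlap in CPM for 6 of the 10 genes, 3 higher and 3 lower with dox, while this held for 53.8% of genes averaging at least 1 CPM (26.1% higher and 27.7% lower). The sign was the same in both replicates for 8 of 10 genes, and for 69.7% of genes at that level. The lowest count of any of the 10 genes was 1183 reads, a counting error of 2.91%. Among the 4250 genes whose mean lay between the lowest and highest of the 10 (61 to 578 CPM), the smallest log2 change that edgeR called was 0.51, and the smallest that DESeq2 called was 0.39.

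**Figure D1:**
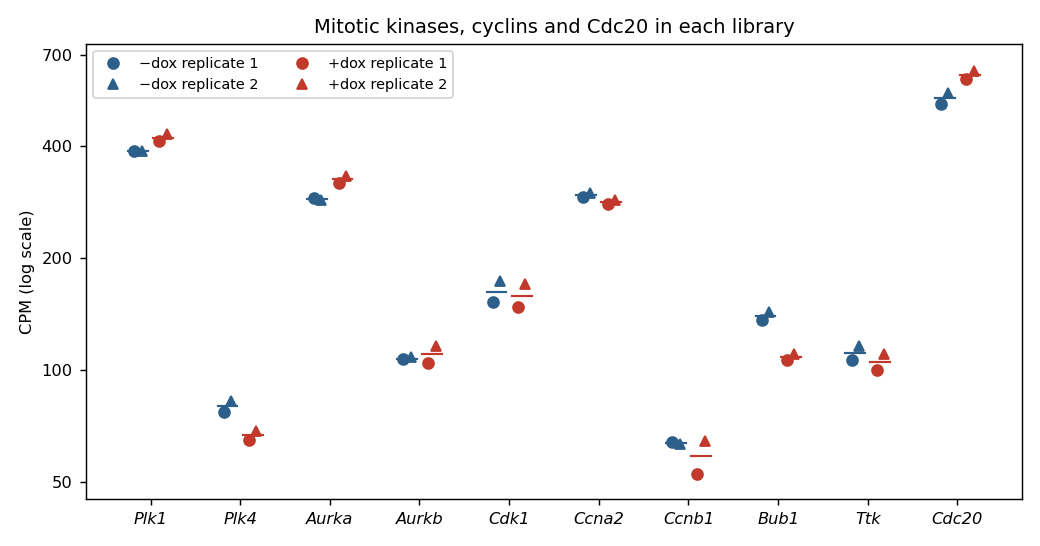
CPM (log scale) of the 10 mitotic genes in each of the 4 libraries, with −dox in blue, +dox in red, circles for replicate 1, triangles for replicate 2 and a short line at the mean of each group. Points of the 2 groups lie apart for Plk1, Aurka and Cdc20 (higher with dox) and for Bub1, Plk4 and Ccna2 (lower), and mix for the other 4 genes.

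Plk1 (NM_011121, chromosome 7 of mm9 from 129302949 to 129313398, plus strand) had 9255 and 9815 reads with dox and 11810 and 9681 without. Scaled to library size, the level was 411 and 429.8 CPM with dox and 387 and 386 CPM without. Both +dox libraries were above both −dox libraries. The mean was 420.5 ± 13.2 CPM (SD, n = 2) in the +dox group against 386 ± 0.595 CPM (SD, n = 2) in the −dox group, or a 1.09-fold difference with a 95% interval of 0.96 to 1.24. The log2 fold change was 0.12 (standard error, SE, 0.08, adjusted p-value 0.503 in edgeR and 0.521 in DESeq2), from 0.09 in replicate 1 and 0.16 in replicate 2. A difference in Plk1 RNA was thus not detectable with these libraries. The 3 genes whose scaled levels over the 4 libraries lay nearest to those of Plk1, out of 13911, were Zfp513, Mrps31 and Psme3, which is a description over 4 points only.

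Plk4 (NM_011495, chromosome 3, 40603873 to 40620805, plus strand), the other Polo-like kinase of the set, stood on the other side of 0. It had 64.9 and 68.5 CPM with dox and 77.1 and 82.4 CPM without, so that both +dox libraries were below both −dox libraries. The log2 fold change was -0.26 (SE 0.11, adjusted p-value 0.22 in edgeR and 0.257 in DESeq2), with -0.25 in replicate 1 and -0.27 in replicate 2. In fold terms this was 0.84 with a 95% interval of 0.71 to 0.98, which is not corrected for the number of genes tested.

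Of the Aurora kinases, Aurka (NM_011497, chromosome 2, 172181690 to 172196070, minus strand) had 318 and 331 CPM with dox and 290.0 and 285 CPM without. Its groups did not overlap, and its log2 fold change was 0.17 (SE 0.09, adjusted p-value 0.32 in edgeR). Aurkb (NM_011496, chromosome 11, 68859145 to 68865164, plus strand), the kinase of the chromosomal passenger complex, had 104 and 116 CPM with dox against 107 and 108 CPM without. The +dox libraries lay on either side of the −dox libraries, and the log2 fold change was 0.04 (SE 0.10, adjusted p-value 0.871 in edgeR), with opposite signs in replicates 1 and 2 (-0.04 and 0.11).

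Cdk1 (NM_007659, chromosome 10, 68799383 to 68815660, minus strand), the central mitotic kinase, differed more between replicates than between conditions. It had 147 and 169.6 CPM in +dox replicates 1 and 2 and 152 and 173 CPM in −dox replicates 1 and 2, a log2 fold change of -0.04 (SE 0.11, adjusted p-value 0.892 in edgeR). Ccna2 (NM_009828, chromosome 3, 36463787 to 36470918, minus strand), the cyclin that binds CDK1 and CDK2 from S phase into early mitosis, had 278 and 286 CPM with dox and 290.5 and 299 CPM without. The groups did not overlap, but the difference was small, with a log2 fold change of -0.06 in the fit and in each replicate (adjusted p-value 0.735 in edgeR). Ccnb1 (NM_172301, chromosome 13, 101548694 to 101556441, minus strand), the cyclin that carries CDK1 into mitosis, had 64.4 CPM in +dox replicate 2, which was above both −dox libraries (63.9 and 63.2 CPM), and 52.5 CPM in +dox replicate 1. The log2 fold change was -0.12 (SE 0.12, adjusted p-value 0.679 in edgeR). Without +dox replicate 1, the library with the highest summed level of feeder markers, it was 0.02. The share of feeder RNA in this value was not tested.

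Bub1 (NM_001113179, chromosome 2, 127625936 to 127657595, minus strand) had the lowest p-value of the set. It had 2379 and 2516 reads with dox and 4167 and 3597 without, which came to 106 and 110.2 CPM against 136 and 143 CPM. Both +dox libraries were well below both −dox libraries, with a mean of 108 ± 3.19 CPM (SD, n = 2) against 139.9 ± 4.9 CPM (SD, n = 2). The log2 fold change was -0.37 (SE 0.10), a fold of 0.77 with a 95% interval of 0.67 to 0.89, and was nearly the same in replicate 1 (-0.37) and replicate 2 (-0.38). Adjusted p-values of 0.0592 (edgeR) and 0.0257 (DESeq2) were both above the threshold of 0.01. Ttk (NM_009445, chromosome 9, 83728296 to 83765997, plus strand), the checkpoint kinase that acts upstream of BUB1 at the kinetochore, had 99.6 and 110.0 CPM with dox and 106 and 116 CPM without. The groups overlapped, and the log2 fold change was -0.08 (SE 0.10, adjusted p-value 0.735 in edgeR).

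Cdc20 (NM_023223, chromosome 4, 118105506 to 118109948, minus strand), whose product the checkpoint inhibits, had 603 and 636 CPM with dox and 519 and 553 CPM without. Both +dox libraries were above both −dox libraries, and the log2 fold change was 0.21 (SE 0.08), from 0.22 in replicate 1 and 0.20 in replicate 2 (adjusted p-value 0.209 in edgeR and 0.205 in DESeq2). The fold was 1.16 with a 95% interval of 1.02 to 1.31.

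The annotation of the same build places exons of Elovl1 on the opposite strand over 53 bases of Cdc20 exons, and exons of Exosc9 over 512 bases of Ccna2 exons. Use of strand in the counting is not stated, so reads from these stretches cannot be assigned to a strand. The neighbours had lower levels, 26 to 31.1 CPM for Elovl1 and 57.8 to 65.4 CPM for Exosc9, with log2 fold changes of 0.14 and 0.08. No exons of another gene overlap the other 8 genes.

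**Figure D2:**
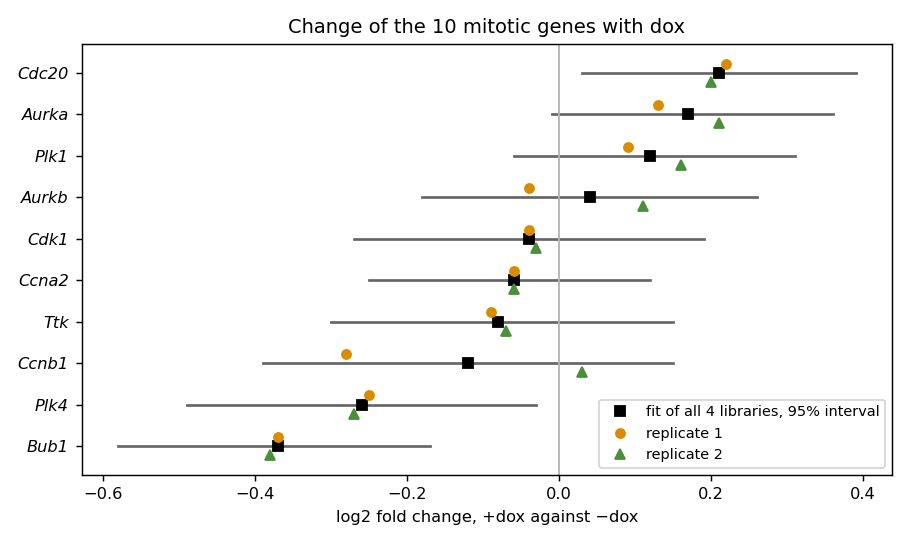
Log2 fold change (+dox against −dox, horizontal axis) of the 10 mitotic genes, as squares with 95% intervals from the fit of all 4 libraries, circles for replicate 1 and triangles for replicate 2. The genes run from Bub1 at -0.37 to Cdc20 at 0.21, and the replicates differ most for Ccnb1 (-0.28 and 0.03).

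Cdc20 and Bub1 stood at the ends of the set. Their ratio can be read within a library, where the scaling to library size has no part. There were 5.71 and 5.77 Cdc20 reads for each Bub1 read with dox and 3.81 and 3.86 without. The ratio of Plk1 to Bub1 reads was 3.89 and 3.90 with dox and 2.83 and 2.69 without. Both ratios have Bub1 as the denominator. The ratio of Ccnb1 to Cdk1 reads was 0.36 and 0.38 with dox and 0.42 and 0.36 without, so that its groups overlapped. The 3 pairs were chosen after the values were seen and are given without a test.

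Compared per length, as CPM per kilobase of exon (RPKM), the 10 genes spanned a 15.7-fold range of mean level from Cdc20 to Plk4. Cdc20 was highest, at 293 to 359 RPKM over the 4 libraries, followed by Plk1 at 175 to 195 RPKM, Aurka at 145 to 168 RPKM and Ccna2 at 99.1 to 107 RPKM, and none of these ranges overlapped. Cdk1 (51.6 to 60.8 RPKM) and Aurkb (53.3 to 59.7 RPKM) could not be ordered. Ttk came next with 34.6 to 40.2 RPKM. Bub1 (24.5 to 33.3 RPKM), Ccnb1 (22.8 to 27.9 RPKM) and Plk4 (18.4 to 23.4 RPKM) were lowest, and each overlapped with the next in order. Plk1 RNA was thus higher than that of any of the other kinases of the set in each library, with and without dox.

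The log2 fold changes of the 10 genes followed the length of their exons and also their GC content. The 3 genes with less than 2000 nt of exon (Cdc20, Aurkb and Aurka) had a median log2 fold change of 0.17, the 5 genes of 2000 to 3000 nt had -0.06, and the 2 longest, Plk4 with 3529 nt and Bub1 with 4310 nt, had -0.32. Over the 10 genes, which share the same 4 libraries, Pearson's r between log2 fold change and length was -0.92, with -0.79 in replicate 1 and -0.98 in replicate 2. The same genes differ in base composition, and r with the GC content of the transcript was 0.90. Length and GC content had an r of -0.81 with each other over the 10 genes, so they cannot be told apart here. All genes averaging at least 1 CPM had medians of 0.09, 0.02 and -0.06 in the same length classes (4153, 3191 and 6567 genes). Over these 13911 genes r with length was -0.12, with -0.00 in replicate 1 and -0.23 in replicate 2. Over the 102 other mitotic genes at that level it was -0.35, with -0.10 in replicate 1 and -0.48 in replicate 2. For GC content, r was 0.04 over 12460 genes averaging at least 1 CPM, with -0.04 in replicate 1 and 0.13 in replicate 2. Over 100 other mitotic genes r with GC content was 0.25, with 0.04 in replicate 1 and 0.37 in replicate 2. After each library was corrected for the average trend with length and GC content, the log2 fold change was -0.26 for Bub1 (adjusted p-value 0.121 in edgeR), 0.15 for Cdc20 and 0.09 for Plk1. Over the 10 genes, r of the corrected values was -0.87 with length and 0.88 with GC content. The part of length or composition in the values of single genes was not tested beyond this.

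**Figure D3:**
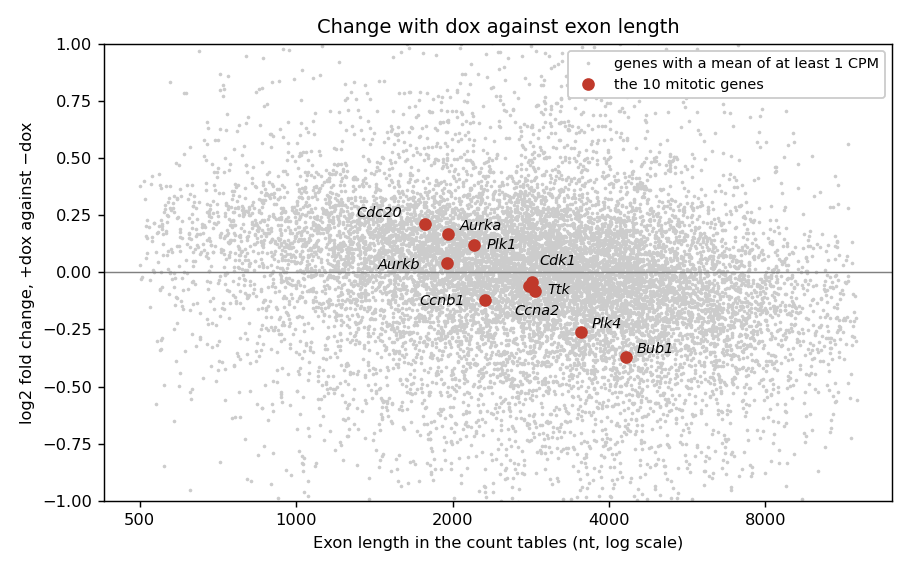
Log2 fold change (+dox against −dox) against the exon length in the count tables (nt, log scale), with the 10 mitotic genes in red and genes averaging at least 1 CPM in grey, of which 13104 of 13911 fall inside the axes. Cdc20 at 1772 nt lies highest of the 10 and Bub1 at 4310 nt lowest.

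A further 104 genes of the mitotic machinery, in 7 lists, were read from the same fit. edgeR called 0 of 104 (0.599% of all genes). Before adjustment 15 had a p-value under 0.05, 6 higher and 9 lower, where this held for 17.8% of all genes (8.48% higher and 9.31% lower). DESeq2 called 2, both higher, where it called 1.87% of all genes. These were Ube2c, the E2 enzyme of the APC/C, and Lin37, a subunit of the DREAM and MuvB complexes that bind CHR elements. Ube2c had 462 and 476 CPM with dox and 325 and 376 CPM without, a log2 fold change of 0.42 (SE 0.09, adjusted p-value 0.0348 in edgeR and 0.00581 in DESeq2). Lin37 had 58.5 and 66.1 CPM with dox and 43.5 and 43.8 CPM without, a log2 fold change of 0.51 (SE 0.12, adjusted p-value 0.0394 in edgeR and 0.00755 in DESeq2). Both have a short total exon length, 923 and 1113 nt. Of the 102 genes averaging at least 1 CPM, 73.5% had a log2 fold change within 0.2 of 0, as did 70% of the 10 genes and 53.7% of all 13911 genes. The 13911 genes reach down to 1 CPM, while the 10 genes average 61 to 578 CPM, and these shares were not compared at matched levels.

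Among regulators of CDK1 (the Cdk1 switch, 15 genes tested), 0 were called by either tool. Over all genes edgeR called 0.599% and DESeq2 1.87%, so 0 calls in a list of this size is not a result about the list. The same holds for the lists below. Of the 14 averaging at least 1 CPM, 10 were below 0, with a median of -0.13. The ends were Cks1b at 0.20 and Cks2 at -0.33, which encode small subunits of the CDK complexes. Among Polo-like kinases and centriole proteins, 0 of 12 were called, and the median was -0.13. Plk2, a Polo-like kinase that p53 is known to induce, had 173 and 147 CPM with dox and 129 and 124 CPM without (log2 fold change 0.34, adjusted p-value 0.103 in edgeR). Cenpj, a centriole protein, had -0.44.

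Partners of the Aurora kinases and cytokinesis genes had a median of 0.00 over 12 genes averaging at least 1 CPM, with 6 above and 6 below 0 and 0 of 13 tested genes called by either tool. Ajuba, an activator of Aurora A, was at 0.27. Kif23, a kinesin of the central spindle, was at -0.54 (adjusted p-value 0.0586 in edgeR and 0.0196 in DESeq2), with 139 and 156 CPM with dox and 179 and 252 CPM without. Spindle checkpoint and kinetochore genes had a median of 0.02 over 18 genes, 9 on each side of 0, and 0 were called. Zwint was highest at 0.30 (176 and 178 CPM against 144 and 145), and Casc5, which encodes the kinetochore scaffold that BUB1 binds, was lowest at -0.45 (55 and 50.6 CPM against 67 and 77.5).

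The APC/C with its substrates had a median of 0.05 over 19 genes, of which edgeR called 0 and DESeq2 called Ube2c alone. Gmnn, which encodes the replication inhibitor geminin, was lowest at -0.24. G2/M transcription regulators had a median of -0.06 over 20 genes, of which edgeR called 0 and DESeq2 called Lin37 alone, and Rbl1, the pocket protein p107, was lowest at -0.36. Of the 8 proliferation markers 7 were below 0, with a median of -0.12 and 0 called by either tool. Mki67 was at -0.33 (adjusted p-value 0.0807 in edgeR), with 638 and 586 CPM with dox and 714 and 829.7 CPM without, and Hmmr was at 0.08.

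**Figure D4:**
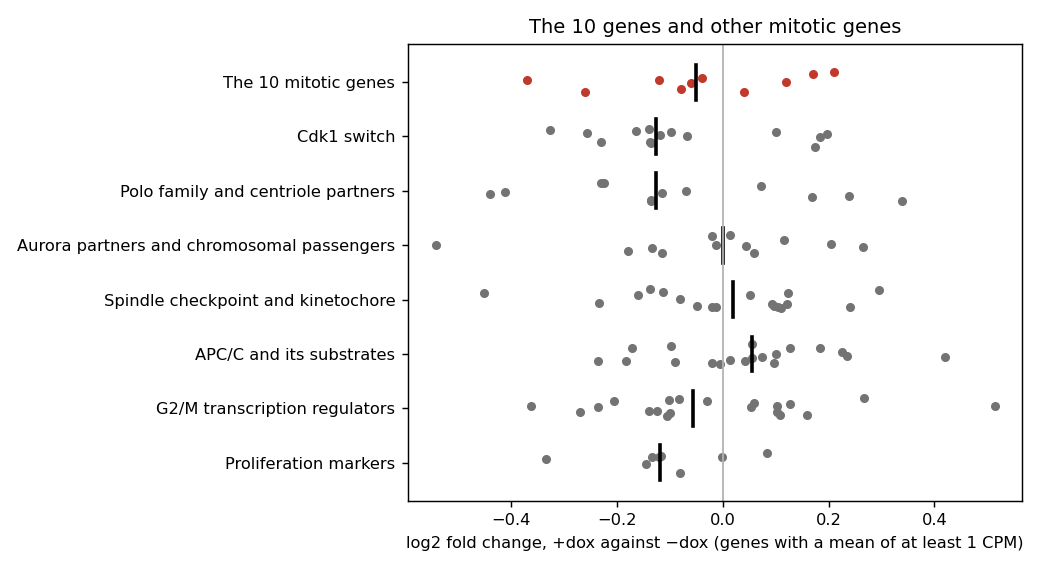
Log2 fold change (+dox against −dox) of the 10 mitotic genes (red) and of genes averaging at least 1 CPM in 7 lists of other mitotic genes (grey), with the median of each list as a black line. List medians lie between -0.13 and 0.05, Lin37 (0.51) and Ube2c (0.42) lie highest, and Kif23 (-0.54), Casc5 (-0.45) and Cenpj (-0.44) lie lowest.

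Genes averaging at least 1 CPM whose promoter window held both TTTGAA and CCAAT had a median log2 fold change of -0.010 (605 genes). Genes with neither motif had a median of -0.009 (6193 genes). The 5 genes of the set with both motifs ran from -0.08 for Ttk to 0.21 for Cdc20, and Plk4, whose window held neither, had -0.26.

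Trp53 and Cdkn1a, which encode p53 and the CDK inhibitor p21 and which the study names, are given for scale. Trp53 had 1060.4 and 1093 CPM with dox and 809 and 816 CPM without, and Cdkn1a had 261 CPM in each library with dox, against 190.3 and 189.9 CPM without. Their adjusted p-values in edgeR were 0.0211 and 0.0196, above the threshold, and in DESeq2 7.35e-04 and 4.18e-04. The log2 fold changes were 0.41 for Trp53 and 0.46 for Cdkn1a, while 4 of the 10 mitotic genes were above 0 and 6 below, none of them called. A relation between these genes and the mitotic genes was not tested.

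Without +dox replicate 1, the library with the highest summed level of feeder markers, the log2 fold changes were -0.35 for Bub1, -0.22 for Plk4, 0.15 for Plk1, 0.20 for Aurka and 0.24 for Cdc20. None of the 10 genes was called by edgeR in this or any other fit that left out 1 library.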

How the data were processed

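Polyadenylated RNA was sequenced in 2 +dox and 2 −dox libraries, grouped by their labels. The authors used cutadapt for trimming, TopHat2 for alignment (mm9) and HOMER for counting reads over exons, after PCR duplicates had been taken out. The deposited values are raw counts per gene, not normalized, in a table for each replicate number. Tool versions and the use of strand are not given in the sources used here. Tables were joined by symbol. The 10 genes have the same transcript in both.

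The 20044 of 24421 genes counted in any library were tested with edgeR 4.0.16 (R 4.3.3), using TMM and the quasi-likelihood test with default settings, without a replicate block. P-values were adjusted over all genes (Benjamini-Hochberg) and called below 0.01. DESeq2 1.42.0 was run beside it. Intervals use the edgeR standard error. Single-replicate log2 fold changes use a prior count of 2. Scripts were tested on simulated data. With a log2 change of 0.4 planted in 200 genes, edgeR called 0 of them and DESeq2 17. With a change of 1 planted in 200 genes, they called 154 and 184. Of the genes without a planted change, edgeR called 0 in both runs. DESeq2 called 8 of them beside the change of 0.4 and 11 beside the change of 1. Replicates differed by more than counting noise (chi-square per degree of freedom 19.2 with dox and 13.2 without).

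All 10 genes are named. Of the other lists, named genes are those called by either tool and, in each list, the largest increase and decrease among genes averaging at least 1 CPM, and the 3 genes nearest to Plk1. Ctcf, Trp53 and Cdkn1a are named because the study names them. The genes and lists were chosen with earlier results of these data known. GC content came from transcripts of NCBIM37 and was known for 89.6% of genes averaging at least 1 CPM. ChIP-seq and Hi-C samples were not analysed here.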

Additional observations from a re-analysis of the deposited data

How the results depend on the processing

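With 2 libraries a group, small differences are not detectable. The count of the 10 genes called was 0 under every alternative, while the count over all genes, 120 by edgeR, was 375 with DESeq2, 0 with deviances adjusted for small counts (3254 at an unadjusted p-value under 0.05), 11 with filterByExpr, 573 at a threshold of 0.05, and 0 to 992 when 1 library was left out (0 without either −dox library, 992 without +dox replicate 1 and 877 without +dox replicate 2). Of the 104 other mitotic genes, 0 in edgeR, 2 were called by DESeq2, 2 at a threshold of 0.05 (Ube2c and Lin37 in both cases) and 0 to 4 when 1 library was left out (Kif23, Ube2c, Lin37 and Mki67 without +dox replicate 1, Plk2 and Kif23 without +dox replicate 2). In these fits the lone library of a group is assumed to vary like the other group. The median log2 fold change of the 10 genes, -0.050, was -0.093 with total counts in place of TMM and ran from -0.115 to 0.039 when 1 library was left out. In single genes, 124 of 130 values kept their direction and stayed above the threshold. The other 6 changed sign close to 0. Aurkb (0.04) was at -0.004 with total counts, -0.04 without +dox replicate 2 and -0.008 after the correction for length and GC content. Cdk1 (-0.04) was at 0.06 without +dox replicate 1 and 0.06 without −dox replicate 2, and Ccnb1 (-0.12) was at 0.02 without +dox replicate 1. When 1 library was left out, the values ran from -0.04 to 0.12 for Aurkb, from -0.14 to 0.06 for Cdk1 and from -0.27 to 0.02 for Ccnb1. The cause was not tested. Over the fits of all 4 libraries, the adjusted p-value of Bub1 ran from 0.0143 (edgeR with a replicate block) to 0.151 (edgeR with adjusted deviances). That of Plk1 ran from 0.381 to 0.689. The threshold of 0.05 was applied to the main edgeR fit only. Bub1 was also under 0.05 with DESeq2 (0.0257) and with total counts in edgeR (0.0437).

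Libraries with the same replicate number were deposited in the same table, and the methods do not state whether they were grown or prepared as pairs. Their deviations from the group means had a correlation of 0.196 across genes. The main fit ignores any such pairing. With the replicate block, edgeR called 786 genes and DESeq2 264, with 0 of the 10 genes in each, and 4 (Kif23, Ube2c, Lin37 and Mki67) and 2 (Kif23 and Ube2c) of the other mitotic genes. The correction for length and GC content and DESeq2 with the replicate block were added after the data had been seen.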
